A study of Mus musculus with 16 samples.

Results

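The chaperone genes described here were 10 of the 25054 genes in the count table of 16 mouse osteosarcomas, taken by symbol: *Hspa8*, *Hspa1a*, *Hspa1b*, *Dnajb1* and *Hspb1* of the cytosolic heat shock families, *Hsp90aa1* and *Hsp90ab1* for cytosolic Hsp90, *Hspa5* and *Hsp90b1* of the endoplasmic reticulum (ER), and *Hspd1* of mitochondria. All 10 had enough counts to be tested. *Hspa8* was also summed with *Gm15459*, a processed pseudogene with almost the same sequence.

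The tumors arose in mice with an inducible Cre that acts in *Osterix*-expressing bone cells (OsxCreERT2+/-) and with floxed p53 and Rb1. Tamoxifen (400 ug per g) had been injected when they were 1 month old, and they were past 6 months at collection. The 8 tumors called KO carried Arid1afl/fl in addition and came from 8 mice. The 8 tumors called WT, which also carried p53fl/fl and Rb1fl/fl, came from 4 mice by the animal codes (N42 gave 4 tumors, N43 gave 2, N215 and N25 a single tumor each), so p-values over tumors treat tumors of 1 mouse as separate. A body site is given only for WT, the N25 tumor is labeled lung, and neither the sex of each tumor nor a batch is given.

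Total counts were 1109487 to 15059640 in KO and 7806160 to 16962329 in WT, with Massa and Grilka the shallowest libraries. *Arid1a* had 107 to 270 CPM (counts divided by the normalized library size and scaled to 1000000) in KO and 125 to 236 CPM in WT (log2 fold change 0.16, SE 0.22, edgeR adjusted p = 0.715). Those counts cover the whole gene, and the exons that the floxed allele loses are not given in the sources used here, so this value checks no label. The 12 osteoblast markers summed to between 718 and 61030 CPM in KO and between 2914 and 84240 CPM in WT, and *Sp7*, *Bglap* and *Bglap2* had 0 counts in Massa. The 16 skeletal muscle markers summed to 121300 CPM in Montana and 178900 CPM in Oregon, against 11.4 to 336 CPM in the other KO tumors and 24.8 to 10540 CPM in WT. All 12 salivary gland markers in the table were counted in Prince (122500 CPM), and the lung markers summed to 13180 CPM in Massa and 29450 CPM in N25 lung. In Zelda the 12 liver markers summed to 1620 CPM, against at most 58.7 CPM elsewhere, and the erythroid markers to 1547 CPM, against at most 494 CPM elsewhere. Of 12 macrophage markers 9 passed as lower in KO (edgeR adjusted p under 0.05), against 2.15% of all tested genes. Their sum was 331 to 2155 CPM in KO and 760 to 2930 CPM in WT, and their part in the results was not tested. The 12 proliferation markers summed to 21.2 CPM in Montana, 23.7 in Prince, 56.8 in Oregon and 71.4 in Massa. The other KO tumors had 951 to 2213 CPM of these markers, and the WT tumors 171 to 1083 CPM. The part of proliferation in the results was not tested. The ribosomal RNA gene CT010467.1 had 2962 to 447000 CPM in KO and 805 to 13930 CPM in WT, with the highest values in Grilka and Massa (339600 CPM).

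Chaperones bind proteins that are not yet folded or have lost their fold, and release them in cycles driven by ATP. Hsp70 proteins act early, guided by J-domain partners such as *Dnajb1*, while Hsp90 proteins finish the folding of kinases, steroid receptors and other clients, and related proteins do the same work in the ER and in mitochondria. Some are made in all cells at high levels, and others are induced by heat shock factor 1 (HSF1) when cytosolic proteins unfold, or by the unfolded protein response when the ER is overloaded with secretory protein such as the collagen that bone-forming cells export.

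The promoters are shown first because heat shock and ER stress act through different control elements. RefSeq promoter windows (GRCm38.p6, 250 bases before to 50 after the start) matched 7 of the 10 genes, and *Hspa8*, *Hsp90aa1* and *Hsp90ab1* had no entry. The heat shock element was searched as GAANNTTC and TTCNNGAA, which read the same on both strands and overlap each other where a site holds 3 or more units. GAANNTTC was in 7.86% and TTCNNGAA in 8.52% of all 32851 windows. The 250 bases before *Hspa1a* (chr17:34972157-34972406, minus strand) and *Hspa1b* (chr17:34959239-34959488, minus strand) each held a single match, shown in capitals, which began 104 bases before the start, and the pair differed at 3 of 250 bases.
Hspa1a: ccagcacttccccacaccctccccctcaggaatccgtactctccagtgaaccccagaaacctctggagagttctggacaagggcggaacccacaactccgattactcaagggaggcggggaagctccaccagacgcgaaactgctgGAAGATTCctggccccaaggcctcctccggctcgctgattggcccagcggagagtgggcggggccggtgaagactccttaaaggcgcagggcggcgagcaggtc
Hspa1b: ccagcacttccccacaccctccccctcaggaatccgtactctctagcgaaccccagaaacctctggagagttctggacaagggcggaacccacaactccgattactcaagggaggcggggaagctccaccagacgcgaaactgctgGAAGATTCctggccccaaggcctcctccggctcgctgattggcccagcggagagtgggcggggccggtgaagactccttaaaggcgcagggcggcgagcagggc

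Heat shock elements also stood before *Hspd1* (chr1:55088053-55088082, minus strand, where 3 overlapping matches form 1 run) and *Hspb1* (chr5:135887801-135887830, plus strand, 2 matches), and are in capitals here.
Hspd1: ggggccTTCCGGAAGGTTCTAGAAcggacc
Hspb1: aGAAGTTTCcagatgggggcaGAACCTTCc

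The ER stress response element, a CCAAT box and a CCACG box 9 bases apart that NF-Y and ATF6 bind, was searched on both strands and was in 39 windows (0.119%). Among the members with a window it was found before *Hspa5* (chr2:34772020-34772049, plus strand) and at 2 places before *Hsp90b1* (chr10:86705632-86705661 and chr10:86705527-86705556, minus strand, the latter match reversed), in capitals below. *Dnajb1* held neither element in its windows. A match describes these letters and is no measured binding site.
Hspa5: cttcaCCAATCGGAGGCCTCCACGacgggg
Hsp90b1, far site: caagcCCAATCGCAAGGAGCCACGcttcgg
Hsp90b1, near site: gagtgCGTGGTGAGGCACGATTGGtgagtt

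Of the 10 members, 2 passed the threshold between KO and WT (edgeR, adjusted p under 0.05 over 15413 tested genes), both higher in KO, against 4.01% of all tested genes in either direction and 1.86% higher in KO. The 2 were *Hspa1a* and *Hspa1b*, the stress-inducible cytosolic Hsp70 genes. These genes share much of their sequence, so their calls cannot be counted as separate. Only these 2 had an unadjusted edgeR p under 0.05, that is 20% of the members, a share below the 23.0% of all tested genes. The other members, among them all of the Hsp90 and ER genes, did not pass. The fitted difference was above 0 for 8 members and below 0 for 2 (8611 and 6802 of all tested genes), with a median log2 fold change of 0.32 beside 0.10 over all tested genes.

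**Figure D1:**
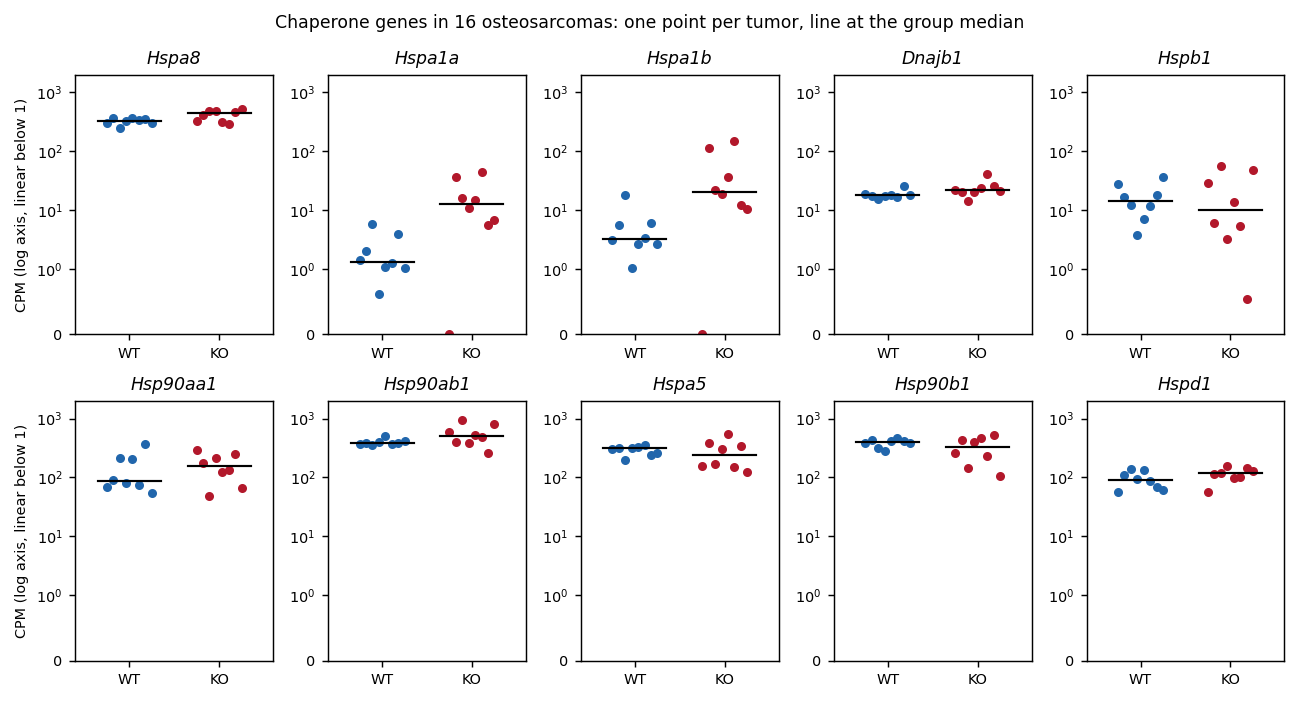
CPM of each chaperone gene in the 8 WT (blue) and 8 KO (red) tumors, on a log axis that is linear below 1 CPM, with 1 point per tumor and a line at the group median. For *Hspa1a* and *Hspa1b*, 7 of 8 KO points lie above the WT median and Massa lies at 0.

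**Figure D2:**
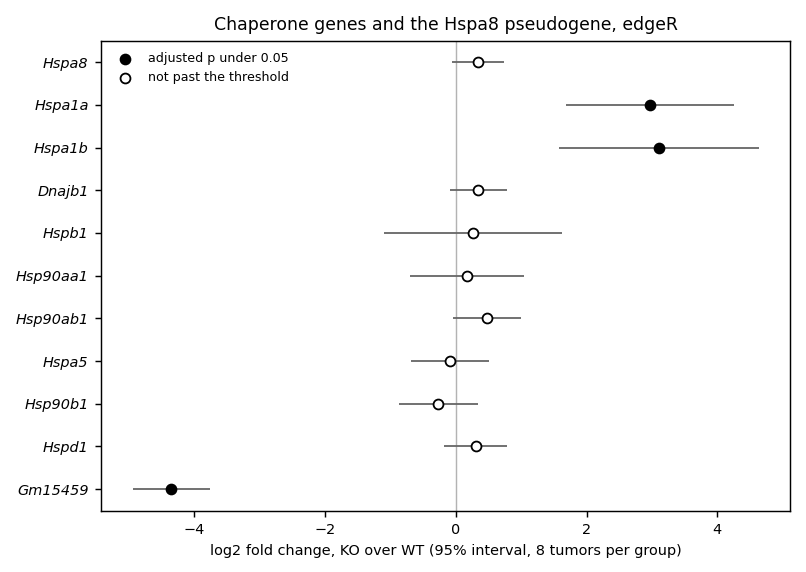
Log2 fold change, KO over WT, of the 10 chaperone genes and *Gm15459*, with the 95% interval from the edgeR standard error and 8 tumors per group. Filled points passed the threshold: *Hspa1a* and *Hspa1b* to the right of 0 and *Gm15459* to the left.

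Levels of different genes can be compared only per length, here as CPM per kilobase of exon. The length joins the exons of all annotated transcripts of a gene, 4301 bases for *Hspa8* and 2999 for *Hsp90ab1*. It can exceed the length of any single transcript, which lowers the value of a gene with many transcripts. The order below therefore holds for this length only and may differ with another. On this scale *Hsp90ab1*, the constitutive cytosolic Hsp90, had the highest median over the 16 tumors (134 CPM per kilobase) and was above the next gene, *Hsp90b1* (97.4), in 15 of 16 tumors. *Hspa8*, the constitutive cytosolic Hsp70, followed with 79.2 and *Hspa5* with 72.3. *Hsp90b1* was above *Hspa8* in only 10 of 16 tumors, so these neighbors were not separated beyond their spread. Their order turned between the groups, with medians of 81.8 for *Hsp90b1* and 101 for *Hspa8* in KO against 99.5 and 76.6 in WT. Here *Hspa8* was taken without *Gm15459*, whose median share of their summed counts was 18.95% in WT and 0.915% in KO. The part of this split in the turn was not tested. *Hspd1* (39.9) and the more inducible Hsp90 gene *Hsp90aa1* (32.4) came next, with *Hspd1* the higher in 10 of 16. *Hspb1* had a median of 12.7, *Dnajb1* 6.06, *Hspa1b* 2.96 and *Hspa1a* 1.62 CPM per kilobase. *Dnajb1* was above *Hspa1b* in 10 of 16 tumors, and the order again turned between the groups, with medians of 6.80 for *Dnajb1* and 7.27 for *Hspa1b* in KO against 5.53 and 1.14 in WT. *Hspa1b* was above *Hspa1a* in 15 of 16 tumors.

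*Hspa1a* and *Hspa1b* lie side by side on chromosome 17 and encode nearly the same protein. Of the 50-base stretches in their GENCODE transcripts, the length of a read here, 66.3% of those of *Hspa1a* and 62.3% of those of *Hspa1b* also occur in another gene, so their separate counts are uncertain. *Hspa1a* had 0 to 44.3 CPM in KO (median 12.9) and 0.625 to 5.79 CPM in WT (median 1.33). Of the KO tumors 6 were above every WT tumor and Massa was below all of them. The log2 fold change was 2.97 (SE 0.66, edgeR adjusted p = 0.0191), from a mean of 16.8 ± 15.4 CPM (SD, n = 8) in KO and 2.15 ± 1.80 CPM in WT. *Hspa1b* had 0 to 148 CPM in KO (median 20.4) and 1.02 to 17.8 CPM in WT (median 3.19). The groups overlapped through Massa at the low end and N215 R hind limb, the highest WT tumor, and 5 KO tumors were above N215. Its log2 fold change was 3.11 (SE 0.78, edgeR adjusted p = 0.0366). With *Hspa1b* at 1.33 to 3.33 counts per count of *Hspa1a* in the 7 KO tumors that had any, and at 1.48 to 3.08 in WT, the ratio of the pair had about the same range in the groups.

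Summed over the pair, the level was 192 CPM in Grilka, 151 in Medusa, 51.1 in Prince, 38.0 in Montana, 29.9 in Ohio, 17.8 in Zelda, 17.3 in Oregon and 0 in Massa. The WT tumors held 23.6 CPM in N215, 9.94 in N25 lung, 7.63 in N42 R pelvis and 1.65 to 4.55 in the other 5. Medusa and Grilka thus stood well above all others, and N215 was the only WT tumor within the range of the 7 KO tumors that had counts. Massa had no count of either gene, and 3 counts, the limit that a count of 0 allows, would be 6.69 CPM in its shallow library, above the level of 5 WT tumors. The mean log2 difference of the sum was 2.04 (SE 1.18) with a two-sided exact permutation p of 0.103 over all splits of the tumors, which is 0.258 when adjusted over the 5 sums and ratios tested this way. Without Massa it was 3.06 (exact permutation p = 0.000622), and without Massa and Grilka 2.72 (exact permutation p = 0.00167).

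The calls of the pair rested on the model. CT010467.1 was highest in Grilka (447000 CPM), Massa (339600), Oregon (140300) and Medusa (96510), of which Grilka and Medusa had the highest level of the pair, Oregon the lowest among the KO tumors with counts, and Massa 0. With CT010467.1 as a covariate, the log2 fold changes fell to 1.98 and 1.42 (edgeR adjusted p = 0.455 and 0.635). With counts summed per mouse, where 0.0625% of all genes passed, the adjusted p was 0.520 and 0.596, without the 4 tumors of N42 it was 0.512 and 0.583, and with limma and the mouse as a random effect 0.374 and 0.471, while the log2 fold change stayed between 1.42 and 3.73 for the pair in every alternative. The part of ribosomal RNA content in the difference was not tested further. Fewer cells of a type and less RNA per cell cannot be told apart in these bulk samples.

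**Figure D3:**
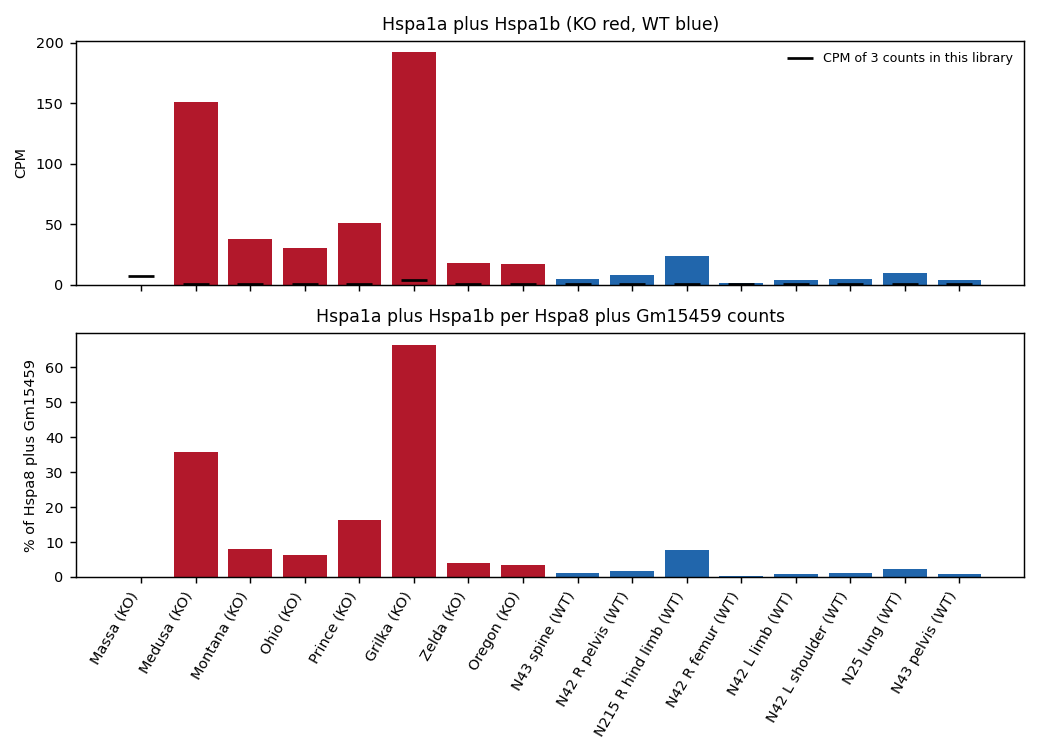
*Hspa1a* plus *Hspa1b* in each tumor, as CPM (top, with a black mark at the CPM of 3 counts in that library) and as a percentage of *Hspa8* plus *Gm15459* counts (bottom). Grilka (192 CPM, 66.5%) and Medusa (151 CPM, 35.8%) are the tallest bars, and Massa has none.

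*Hspa8* and *Gm15459* cannot be read apart without care. The pseudogene (chr5:5781615-5783555, minus strand) is as long as the *Hspa8* coding sequence, 1941 bases, and differs from it at 5 bases, so that 1642 of 1892 stretches of 50 coding bases are identical. The stretch from base 84 to base 143 of the coding sequence is shown because it holds the most upstream of these differences, in capitals.
Hspa8: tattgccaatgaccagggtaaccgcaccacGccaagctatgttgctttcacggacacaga
Gm15459: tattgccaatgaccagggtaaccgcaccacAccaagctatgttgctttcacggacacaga

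*Hspa8* had 286 to 516 CPM in KO (median 436) and 252 to 369 CPM in WT (median 329). Of the KO tumors 5 were above every WT tumor, yet the log2 fold change of 0.34 (SE 0.20) did not pass (edgeR adjusted p = 0.334). *Gm15459* had 0 to 5.31 CPM in KO (median 3.85) and 57.9 to 87.3 CPM in WT (median 79.6). Its groups did not overlap, as for 32 of all tested genes that were lower in KO (0.208%), and the log2 fold change was −4.35 (SE 0.30, edgeR adjusted p = 3.02e-07). *Gm15459* took 17.7% to 20.2% of the summed *Hspa8* and *Gm15459* counts in WT, and 0% to 1.05% in KO. This share was thus nearly constant within each group, in tumors of different mice and, for WT, of different sites.

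When the counts were summed the groups were level. The sum was 289 to 521 CPM in KO (median 441) and 310 to 453 CPM in WT (median 409), a mean log2 difference of 0.02 (SE 0.13, 95% interval −0.24 to 0.28, exact permutation p = 0.873). Other near-identical copies did not divide by group in this way. *Gm8355*, another copy of *Hspa8*, took 0% to 0.860% of the shared counts in KO and 0.270% to 0.555% in WT, and *Gm12346*, a copy of *Hsp90aa1*, took 2.01% to 12.5% in KO and 1.30% to 3.57% in WT. The cause of the *Gm15459* split was not tested.

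**Figure D4:**
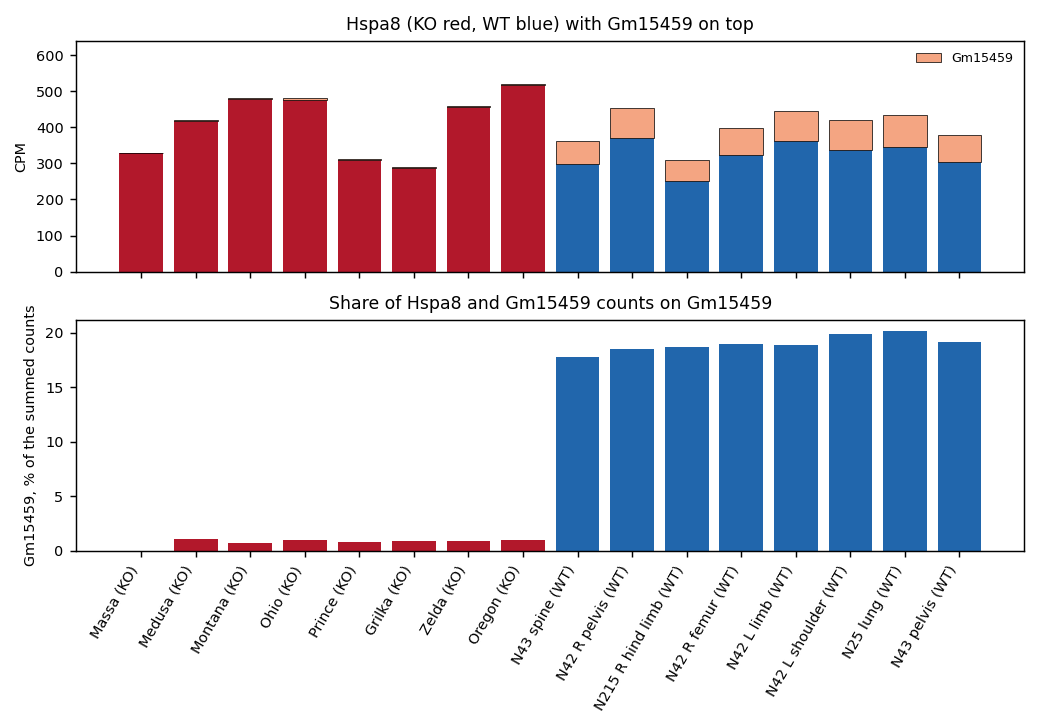
*Hspa8* CPM with *Gm15459* stacked on top (upper panel) and the percentage of their summed counts on *Gm15459* (lower panel), by tumor. The share is at most 1.05% in the KO tumors and at least 17.7% in the WT tumors, while the stacked heights overlap.

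The inducible Hsp70 pair was also read within each library, against *Hspa8* plus *Gm15459*, which no scaling between libraries can move. The pair stood at 0% to 66.5% of the constitutive counts in KO (median 7.05%) and at 0.414% to 7.62% in WT (median 1.16%). The mean log2 ratio was 2.51 higher in KO (SE 0.86, exact permutation p = 0.0115), but with adjustment over the 5 values tested the p was 0.0575. Per mouse the difference was 1.91 (exact permutation p = 0.135) and without N42 1.89 (exact permutation p = 0.139).

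*Dnajb1*, the J-domain partner that brings unfolded clients to Hsp70 and is itself a target of HSF1, had 14.5 to 40.3 CPM in KO (median 21.8) and 15.4 to 25.6 CPM in WT (median 17.7). Grilka was the highest KO tumor, as for the inducible Hsp70 pair, and N25 lung was the highest WT tumor. The difference of 0.35 (SE 0.22) did not pass (edgeR adjusted p = 0.359), although 7 of 8 KO tumors were above the WT median. In the 4 tumors of mouse N42 *Dnajb1* kept to between 16.8 and 18.1 CPM, the narrowest range of the set.

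*Hspb1* encodes the small heat shock protein Hsp25, which holds unfolded proteins without ATP and is abundant in muscle. It varied widely, from 0.543 CPM in Zelda to 55.9 CPM in Montana among KO tumors (median 10.03) and from 3.75 to 36.5 CPM in WT (median 14.5). The groups overlapped over nearly the whole range, and the log2 fold change of 0.26 (SE 0.70) did not pass (edgeR adjusted p = 0.862). The highest KO values, 55.9 CPM in Montana and 47.5 CPM in Oregon, were in the tumors with the skeletal muscle genes. *Atp2a1*, the calcium pump of fast muscle and the most abundant gene of that list, had 30410 CPM in Montana and 26610 CPM in Oregon, and at most 1710 CPM elsewhere. N43 pelvis, with the most muscle signal in WT (10540 CPM), had the highest WT *Hspb1*. The other WT tumors did not all follow this order. N215 R hind limb (7200 CPM of muscle markers) had 12.25 CPM of *Hspb1*, under the WT median. N43 spine (3825 CPM) had 27.5 CPM, and N25 lung (24.8 CPM) had 18.3 CPM. Without Montana, Oregon and Prince the log2 fold change of *Hspb1* was −1.25. Massa, with 12 of 16 muscle markers at 0, still had 29.0 CPM from 13 counts. The part of muscle in this gene was not tested.

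*Hsp90ab1* and *Hsp90aa1* encode the constitutive and the more inducible cytosolic Hsp90. *Hsp90ab1* had 265 to 951 CPM in KO (median 503) and 356 to 509 CPM in WT (median 384). The WT tumors were close together, at 356 to 408 CPM in all but N42 L limb (509 CPM), whereas KO ran from Zelda, below every WT tumor, to Montana (951 CPM) and Oregon (824 CPM), the tumors with muscle genes. The log2 fold change of 0.48 (SE 0.26) did not pass (edgeR adjusted p = 0.286). Without Montana, Oregon and Prince it was 0.077. The part of muscle in *Hsp90ab1* was not tested.

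*Hsp90aa1* had 48.0 to 288 CPM in KO (median 155) and 54.1 to 364 CPM in WT (median 85.7). The highest KO value was in Massa (129 counts) and the highest WT value in N25 lung, which were the libraries with lung markers. High values also occurred at low lung marker sums, with 250.9 CPM in Zelda, 214.6 CPM in Ohio and 203.5 CPM in N42 L limb. Their lung markers summed to 43.81, 6.87 and 21.31 CPM. The part of lung in this gene was not tested. The lowest KO values were in Montana (48.0 CPM) and Oregon (65.2 CPM). The log2 fold change was 0.17 (SE 0.44, edgeR adjusted p = 0.861). As a ratio of counts, not corrected for length, *Hsp90aa1* stood at 5.04% to 94.5% of *Hsp90ab1* in KO (median 35.5%). In WT it stood at 13.3% to 93.5% (median 22.1%), and Montana and Oregon were the only tumors under 10%. The log2 ratio differed by −0.12 (SE 0.61, exact permutation p = 0.853), with a 95% interval of −1.32 to 1.08, which is wide. Of the 50-base stretches of *Hsp90aa1* 47.5% also occur in another gene, against 3.44% for *Hsp90ab1*.

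*Hspa5* (BiP) is the Hsp70 of the ER and holds the stress sensors of the unfolded protein response inactive, and *Hsp90b1* (Grp94) is the Hsp90 of the ER. *Hspa5* had 123 to 544 CPM in KO (median 237) and 197 to 361 CPM in WT (median 311). The KO tumors lay on either side of WT: 2 were above every WT tumor and 4 below every WT tumor. *Hsp90b1* had 108 to 528 CPM in KO (median 330) and 282 to 460 CPM in WT (median 401), also with 2 KO tumors above and 4 below all of WT. The log2 fold changes were −0.09 (SE 0.30, edgeR adjusted p = 0.896) and −0.27 (SE 0.31, edgeR adjusted p = 0.648). The low KO tumors were the same for both genes, Massa, Montana, Grilka and Oregon. Prince had the highest *Hspa5*, 544 CPM, and was the tumor with the salivary gland genes, of which *Egf* was the most abundant (92850 CPM against at most 339 CPM elsewhere). *Hsp90b1* was highest in Zelda, the tumor with the liver and most erythroid marker counts. The part of these tissues in the ER genes was not tested.

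Per count of *Hspa5* there were 0.841 to 1.66 counts of *Hsp90b1* in KO and 0.902 to 1.70 in WT, so the range of the ratio was similar in the groups. Against the cytosolic Hsp70, *Hspa5* counts were 23.5% (Oregon) to 175% (Prince) of *Hspa8* plus *Gm15459* counts in KO and 56.6% to 86.1% in WT. These ratios of counts were not corrected for length. The medians were 57.9% and 71.2%, and the log2 ratio differed by −0.27 (SE 0.32, exact permutation p = 0.420, 95% interval −0.89 to 0.35).

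*Hspd1*, the mitochondrial chaperonin Hsp60, had 55.8 to 157 CPM in KO (median 117) and 55.9 to 140 CPM in WT (median 89.8). Massa (55.8 CPM, from 25 counts) was the single KO tumor below the WT median. The log2 fold change of 0.30 (SE 0.25) did not pass (edgeR adjusted p = 0.492).

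Seen by tumor, the members departed most from WT in Oregon, Montana and Grilka. The proliferation markers summed to 56.8 CPM in Oregon and 21.2 CPM in Montana, against 951 CPM in Grilka. On the log2 CPM scale 6 of 10 members in Oregon, 5 in Montana and 5 in Grilka lay over 1 from the WT median, 4 each in Massa, Medusa, Ohio and Zelda and 2 in Prince. In WT the number was 0 to 2, and 3 in N215. The WT tumors themselves set this median, and *Hspa1a* and *Hspa1b* count as 2 members, so the numbers cannot be compared strictly between the groups. In the 4 tumors of N42 *Hspa8* ranged from 322 to 369 CPM and *Hspa5* from 312 to 361 CPM, while *Hsp90aa1* ranged from 75.2 to 204 CPM and *Hspa1b* from 1.02 to 5.59 CPM. *Hspa8* and *Hspa5* thus held a narrower range among tumors of 1 mouse than *Hsp90aa1* and *Hspa1b*.

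**Figure D5:**
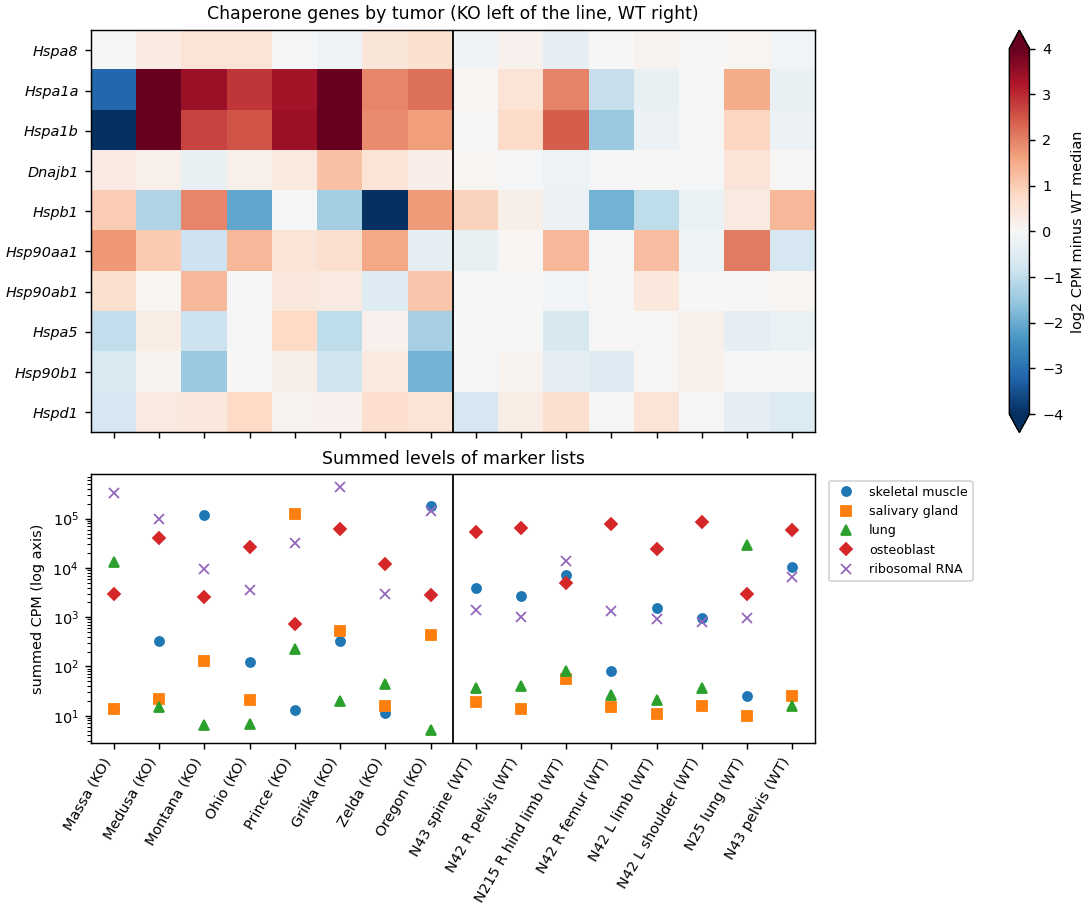
Log2 CPM of each chaperone gene in each tumor minus the WT median (top; red above, blue below, color limits at 4) and the summed CPM of 5 marker lists in the same tumors on a log axis (bottom). The *Hspa1a* and *Hspa1b* rows are red in 7 KO tumors, and *Hspa5* and *Hsp90b1* are blue in Massa, Montana, Grilka and Oregon.

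The other genes of these systems were read from 4 lists. Of 36 cytosolic co-chaperones and other heat shock genes 0 passed in edgeR and 3 in DESeq2, which called 12.5% of all genes it tested. The fitted difference was above 0 for 30 of 36, with a median log2 fold change of 0.46 beside 0.10 for all tested genes, and 12 had an unadjusted p under 0.05, 10 of them higher in KO. Over all tested genes the difference was above 0 for 55.9%, and 23.0% (3546, of which 2043 higher in KO) had an unadjusted p under 0.05. The smallest p belonged to *Stub1*, the ubiquitin ligase CHIP that marks clients of Hsp70 for degradation, with 47.6 ± 21.0 CPM in KO and 25.8 ± 6.10 CPM in WT (log2 fold change 0.89, edgeR adjusted p = 0.0696). The J-domain genes *Dnajb5* and *Dnajb2* followed (log2 fold change 2.43 and 1.67, edgeR adjusted p = 0.0772 and 0.0913). Their highest values were again in the tumors with muscle genes, where *Dnajb5* had 140 CPM in Montana and 236 CPM in Oregon against 6.69 to 21.5 CPM in the other KO tumors. *Fkbp4*, an immunophilin that joins Hsp90 on steroid receptors, had 35.7 to 170 CPM in KO and 16.2 to 102 CPM in WT (log2 fold change 1.201, edgeR adjusted p = 0.119), with all 8 KO tumors above the WT median.

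Of 14 genes of the chaperonin CCT and of prefoldin, which fold actin and tubulin, 0 passed in edgeR or in DESeq2. The median log2 fold change was 0.02, and 2 had an unadjusted p under 0.05, a share below the 23.0% of all tested genes. The genes of smallest p were the prefoldin subunits *Pfdn1* and *Pfdn6* (log2 fold change 0.67 and 0.64, edgeR adjusted p = 0.166 and 0.180). *Vbp1*, also of prefoldin, and the CCT subunit *Cct5* had log2 fold changes of −0.58 and −0.70 (edgeR adjusted p = 0.274 and 0.327), and *Cct5* stood at 646 CPM in N42 L limb against at most 180 CPM in any other tumor.

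In the ER, 35 of 36 folding and unfolded protein response genes were tested, of which 0 passed in edgeR and 3 in DESeq2. They divided into 17 with a fitted difference above 0 and 18 below, with a median of −0.00, and 6 had an unadjusted p under 0.05, 4 of them lower in KO, again a share below the 23.0% of all tested genes. Those 4, which had the smallest p of the list, were *Dnajc10*, a disulfide reductase and J-domain partner of BiP (60.6 ± 20.9 CPM in KO, 109 ± 30.5 CPM in WT, log2 fold change −0.84, edgeR adjusted p = 0.0599), *Derl1* and *Derl2* of the pathway that exports misfolded proteins from the ER (−1.24 and −0.64, edgeR adjusted p = 0.0828 and 0.131), and *Ppib*, the proline isomerase that assists collagen folding (−0.80, edgeR adjusted p = 0.128). No KO tumor was above the WT median for *Dnajc10* or *Derl1*, that is 0 of 8.

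Of 11 mitochondrial chaperones 1 passed, against 4.01% of all tested genes in either direction and 1.86% higher in KO. The gene was *Trap1*, the mitochondrial Hsp90. It had 47.6 to 181 CPM in KO and 25.6 to 55.7 CPM in WT, and all 8 KO tumors were above the WT median, 6 of them above every WT tumor. Its log2 fold change was 1.32 (SE 0.28, edgeR adjusted p = 0.0159), and Oregon (181 CPM) and Montana (112 CPM) were the highest. It no longer passed in 5 alternatives, namely with limma and the mouse as a random effect, with counts summed per mouse, without N42, without Montana, Oregon and Prince, and with CT010467.1 as a covariate. *Timm44*, *Dnaja3* and *Clpx*, which act in protein import, folding and unfolding in the matrix, had log2 fold changes of 0.81, 0.64 and 0.43 (edgeR adjusted p = 0.239, 0.269 and 0.379). The list had a median of 0.23, and 1 of its 11 genes had an unadjusted p under 0.05, a share below the 23.0% of all tested genes.

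The genes most like the members over the 16 tumors were ranked by Pearson's r of log2 CPM, as a description, since the tumors share depth and tissue content. For the inducible Hsp70 sum these were the small nucleolar RNA *Snora41* (r = 0.94, mean 1.43 CPM), *Xrcc6*, which encodes Ku70 (0.94), and the nucleolar deubiquitinase *Usp36* (0.93). For *Hsp90aa1* they were the histone genes *H4c4* (0.86) and *H4c8* (0.85) and *Idi1* (0.85), an enzyme of cholesterol synthesis. For *Hspa5* they were *Eipr1* (0.92), *Tmc6* (0.91) and *Fam234b* (0.91), and for *Hspa8* plus *Gm15459* *Tes3-ps* (0.84), *Mtrr* (0.82) and *Orc5* (0.82).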

How the data were processed

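Total RNA of 16 tumors was depleted of ribosomal RNA and sequenced for 50 cycles from 1 end. According to the methods of the study, the authors aligned reads with Novoalign 2.08.01 to mm10 and Ensembl splice junctions, allowed several alignments per read and kept the best, counted reads per gene with USeq, and deposited the raw counts, which they tested with DESeq2 1.26.0. The strand is not given in the sources used here, so antisense reads cannot be told apart.

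Counts were tested with edgeR 4.0.16 in R 4.3.3 (TMM, filterByExpr with a minimum count of 10 and total of 15, glmQLFit and glmQLFTest, no covariate, two-sided, Benjamini-Hochberg over 15413 genes, threshold 0.05), which left out 9641 genes. DESeq2 1.42.0 and limma 3.58.1 were alternatives. The pipeline was tested on simulated data. Sums and ratios (1 count added to each side of a ratio) were tested by exact permutation of the 16 tumors, for which the smallest p is 0.000155. A count of 3 equals 6.69 CPM in Massa, 4.03 CPM in Grilka and 0.146 to 0.340 CPM in WT, for counting error only. Groups come from the genotype in the labels. Positions and shared 50-base stretches come from GENCODE vM21 (GRCm38). The members and lists were chosen with earlier results of these data known. Besides the members, the text names the 4 genes of smallest p in each list, the 3 most like genes, and the most abundant marker beside a member. *Gm8355*, *Gm12346* and single markers listed at 0 were named after their values were seen.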

Additional observations from a re-analysis of the deposited data

Results flagged for a closer look

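Dixon's test was applied to 30 groups of 8 values on the log2 scale, of which chance marks about 1 in 20. Massa lay far below the other KO tumors for *Hspa1a* (gap over range 0.634), *Hspa1b* (0.6133), their sum (0.6592) and *Hspd1* (0.5493). In WT, N42 L limb lay above the others for *Hsp90ab1* (0.6159), and N25 lung lay above the others for *Dnajb1* (0.6329). Massa is the shallowest library, with 0 counts of *Hspa1a* and *Hspa1b* and 25 of *Hspd1*, and the part of depth in its values was not tested.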

How the results depend on the processing

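No paired analysis was possible because no animal gave tumors of both genotypes. The number of genes past the threshold was 618, and became 2517 with DESeq2, 17 with limma and the mouse as a random effect, 10 with counts summed per mouse, 8 without N42 and 7 with CT010467.1 as a covariate. It ran from 252 (without N42 L shoulder) to 1348 (without Zelda) when 1 tumor was left out. The members past the threshold were 2, and 0 under the last 4 of these alternatives. Leaving out 1 tumor gave 1 to 2 members, since *Hspa1b* was lost (adjusted p 0.0625 to 0.0794) without Medusa, Grilka or any of 6 WT tumors. *Hspa1a* passed in 24 of 28 and *Hspa1b* in 16 of 28 alternatives, with adjusted p from 5.99e-05 to 0.520 and from 0.000946 to 0.635.

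The log2 difference of *Hspa1a* plus *Hspa1b* was 1.59 to 3.06 with 1 tumor left out, and had an exact permutation p under 0.05 only without Massa (3.06) or without Massa and Grilka (2.72). The inducible to constitutive ratio fell to 1.91 per mouse and 1.89 without N42, and was 2.078 to 3.03 with 1 tumor left out. Differences near 0 changed sign: *Hspa8* plus *Gm15459* (−0.032 to 0.090 with 1 tumor left out, −0.031 without Montana, Oregon and Prince) and *Hsp90aa1* to *Hsp90ab1* (−0.37 to 0.23 with 1 tumor left out, 0.12 without N25 lung, 0.76 without Montana, Oregon and Prince). *Hsp90aa1* was −0.10 with limma, −0.18 per mouse, −0.080 without N42 and −0.00077 without Massa and Grilka. *Hspa5* was 0.10 per mouse, 0.14 without N42, 0.067 without Massa and Grilka, 0.48 with the covariate and 0.015 without Oregon (−0.31 to 0.015 with 1 tumor left out), and *Hsp90b1* was 0.18 with the covariate. *Hspb1* was −1.22 with limma, −0.22 without N42, −1.25 without Montana, Oregon and Prince, −0.44 with the covariate, −0.19 without Montana and −0.07 without Oregon (−0.19 to 0.53 with 1 tumor left out). The cause of these changes was not tested. Size factors, upper quartile factors and no filter on low counts changed no call of a member. The counts of the other chaperone lists under each alternative were added after seeing the data: 0 to 3 cytosolic, 0 chaperonin, 0 to 3 ER and 0 to 1 mitochondrial genes passed.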
